A study of Mus musculus with 6 samples.

Results

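The BCL2 family genes described here are the 10 genes Bcl2, Bcl2l1, Mcl1, Bax, Bak1, Bcl2l11, Bbc3, Pmaip1, Bid and Bad, taken by gene name from a table of 34745 mouse genes. They were chosen because NR4A1 protein can bind BCL2, and all 10 were found and passed the filter on low counts that left 12941 genes for testing. RNA was sequenced from MLE-12 cells, a single immortalized mouse lung epithelial cell line, after transfection with either pCMV-SPORT6 carrying the NR4A1 open reading frame (NR4A1 overexpression group) or the empty pCMV-SPORT6 vector (vector control group), with 3 libraries in each group. The overexpressed NR4A1 is driven by the CMV promoter of a plasmid, the cells received it by lipid transfection, and the cells of both groups carry SV40 large T antigen, which immortalized the line and is known to bind p53. Total counts lay between 15019038 and 17574340 per library, and nothing in the labels says whether the 3 libraries of a group came from separate cultures, so p-values measure the spread between these libraries, which may be technical.

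Proteins of the BCL2 family decide whether the outer mitochondrial membrane stays intact. The guardians BCL2, BCL-xL (from Bcl2l1) and MCL1 hold the effectors BAX and BAK in check, and once freed the effectors form pores through which cytochrome c leaves to start the caspase cascade. BH3-only proteins, such as BIM (from Bcl2l11), PUMA (Bbc3), NOXA (Pmaip1), BID and BAD, sense stress and act through a short helix, the BH3 domain, that fits into a groove of the guardians. NR4A1, a nuclear receptor and transcription factor, is also known to leave the nucleus and bind BCL2, which exposes the BH3 domain of BCL2 and turns it from a guardian into a killer. RNA counts show the amount of messenger RNA only, so neither the position of NR4A1 protein nor that of the BCL2 family proteins was measured.

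The BH3 domain is what all 10 genes share, and its coding sequence is shown because it is the element through which these proteins, and BCL2 when bound by NR4A1, act on each other. The pattern sought was a leucine followed by 3 residues, a small residue and an aspartate. Among the annotated proteins of each gene that held it (GENCODE M21, GRCm38), the longest was used. That protein held the pattern once in 9 of the genes and 2 times in Pmaip1. Annotated proteins without the pattern were passed over. How often this short pattern occurs in other proteins was not counted. Each line gives 30 coding bases 5′ to 3′ on the gene's own strand, the capitals marking the codons of the leucine, the small residue and the aspartate. The small residue is glycine in 7 of these 9 genes, alanine in Bbc3 and serine in Bad.
Bcl2, chr1:106712578-106712607, minus strand, exon 1: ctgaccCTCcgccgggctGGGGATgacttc
Bcl2l1, chr2:152829700-152829729, minus strand, exon 2: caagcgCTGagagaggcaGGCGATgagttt
Mcl1, chr3:95659430-95659459, plus strand, exon 1: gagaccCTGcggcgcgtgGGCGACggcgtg
Bax, chr7:45466000-45466029, minus strand, exon 3: gagtgtCTCcggcgaattGGAGATgaactg
Bak1, chr17:27022534-27022563, minus strand, exon 4: cggcagCTTgctctcatcGGAGATgatatt
Bcl2l11, chr2:128147144-128147173, plus strand, exon 3: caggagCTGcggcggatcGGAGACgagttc
Bbc3, chr7:16313767-16313796, plus strand, exon 3: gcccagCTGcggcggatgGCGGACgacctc
Bid, chr6:120897292-120897321, minus strand, exon 4: agacatCTCgcccaaataGGCGATgagatg
Bad, chr19:6950786-6950815, plus strand, exon 3: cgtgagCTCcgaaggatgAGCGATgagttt

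A gene was called different between the NR4A1 overexpression group and the vector control group when its adjusted p was under 0.05 and its fold change 2 or more in either direction, and 0 of the 10 genes were called (edgeR's quasi-likelihood test with Benjamini-Hochberg adjustment, used for every adjusted p here unless another tool is named). Over all tested genes 0.17% were called higher and 0% lower, so calls were rare among all genes at this threshold. In this fit 0 of the 10 had an unadjusted p under 0.05, against 6.46% of all tested genes. DESeq2 and limma also called 0 of them after adjustment, although Pmaip1 had an unadjusted p of 0.00924 with DESeq2. In edgeR's fit the adjusted p-values of the 10 genes lay between 0.786 and 0.987. Their median log2 fold change in that fit was 0.05, beside 0.01 over all tested genes. Of the 10 values, 6 were above and 4 below 0. The target of the design moved as labelled, since Nr4a1 had 50660 to 68555 counts per library with the plasmid for NR4A1 and 428 to 510 with the empty one.

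The 95% intervals show which fold changes these libraries left possible, gene by gene and without adjustment for the number of genes. For 8 of the 10 genes the 95% confidence interval of the fold change lay within 2-fold in both directions, as it did for 85.5% of all tested genes, and for 7 of them it lay within 1.5-fold, against 68.3% of all tested genes. The exceptions were Bcl2l1 and Pmaip1 for 2-fold, and also Bax for 1.5-fold.

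**Figure D1:**
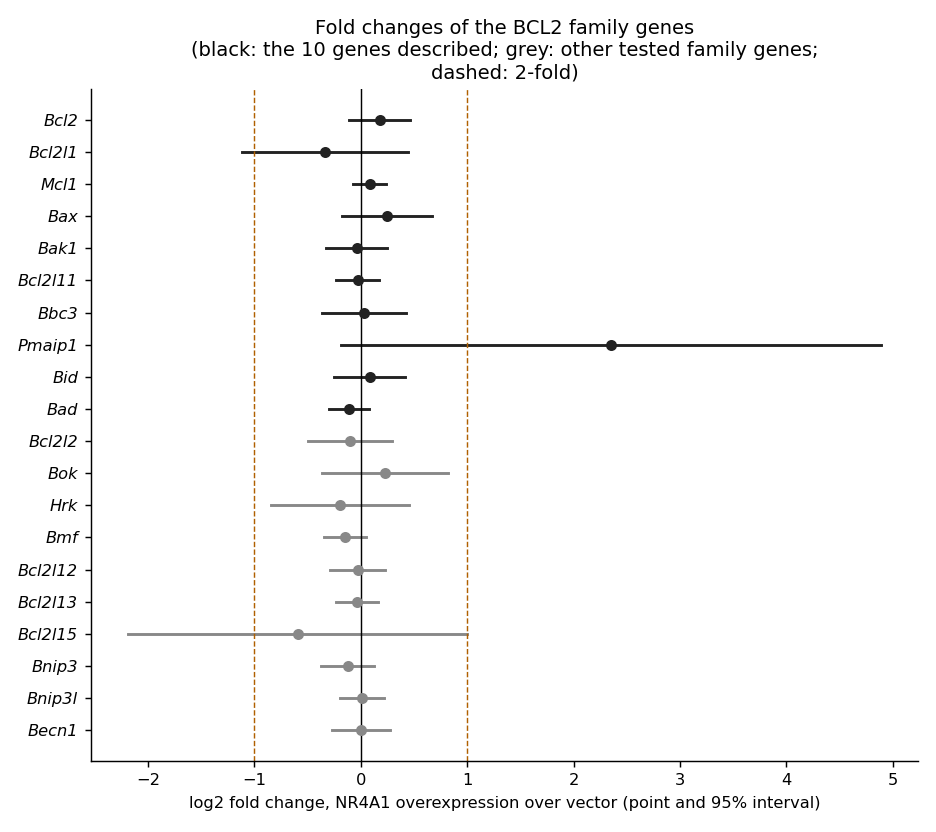
Log2 fold change of NR4A1 overexpression over vector control (x axis) for the 10 genes in black and for the 10 other tested genes of the family in grey, as points with 95% confidence intervals, with dashed lines at a 2-fold change. Every interval crosses 0, and those of Pmaip1 and Bcl2l15 are the widest of the plot.

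Among the guardians, Mcl1, whose short-lived protein is rebuilt from its messenger RNA continuously, was at 259, 241 and 243 TMM-normalized CPM (counts scaled to a common library size with edgeR's TMM factors) in NR4A1 overexpression replicates 1, 2 and 3 and at 234, 241 and 227 CPM in vector control replicates 1, 2 and 3. Every NR4A1 library lay above every vector control on this scale, a separation that 6.69% of tested genes showed, but NR4A1 replicate 2 and vector replicate 2 differed by less than the rounding of these values. The log2 fold change was 0.08 (standard error 0.0673, 95% interval -0.08 to 0.24, adjusted p = 0.901), so that a change of Mcl1 beyond 1.18-fold upwards or to below 0.948-fold lay outside the interval. The spread of Mcl1 between libraries of a group ranked at the percentile of 3.87 among all tested genes, the steadiest of the 10 genes.

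Bcl2, the founder of the family and the guardian to which NR4A1 protein binds, was at 18.4, 15.0 and 15.7 CPM in the NR4A1 replicates and at 15.7, 13.5 and 14.1 CPM in the vector controls. The groups overlapped, with NR4A1 replicate 1 the highest library and vector replicate 2 the lowest. This gave a log2 fold change of 0.18 (standard error 0.122, 95% interval -0.11 to 0.46, adjusted p = 0.880), which came to 0.083 without NR4A1 overexpression replicate 1.

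Bcl2l1, which encodes the guardian BCL-xL and, by alternative splicing, the shorter killer form BCL-xS, was at 21.4, 36.6 and 22.7 CPM in the NR4A1 replicates and at 23.6, 27.2 and 51.2 CPM in the vector controls. A single library of each group stood above the others, replicate 2 with NR4A1 and replicate 3 with vector, and the highest of all 6 was a vector control. The log2 fold change of -0.34 (standard error 0.332, 95% interval -1.12 to 0.44, adjusted p = 0.921) became 0.082 (adjusted p = 0.996) without vector control replicate 3 and -0.63 (adjusted p = 0.620) without NR4A1 overexpression replicate 2. The spread of Bcl2l1 within groups ranked at the percentile of 94.5 among all tested genes. The counts are per gene, so the forms BCL-xL and BCL-xS are not told apart.

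**Figure D2:**
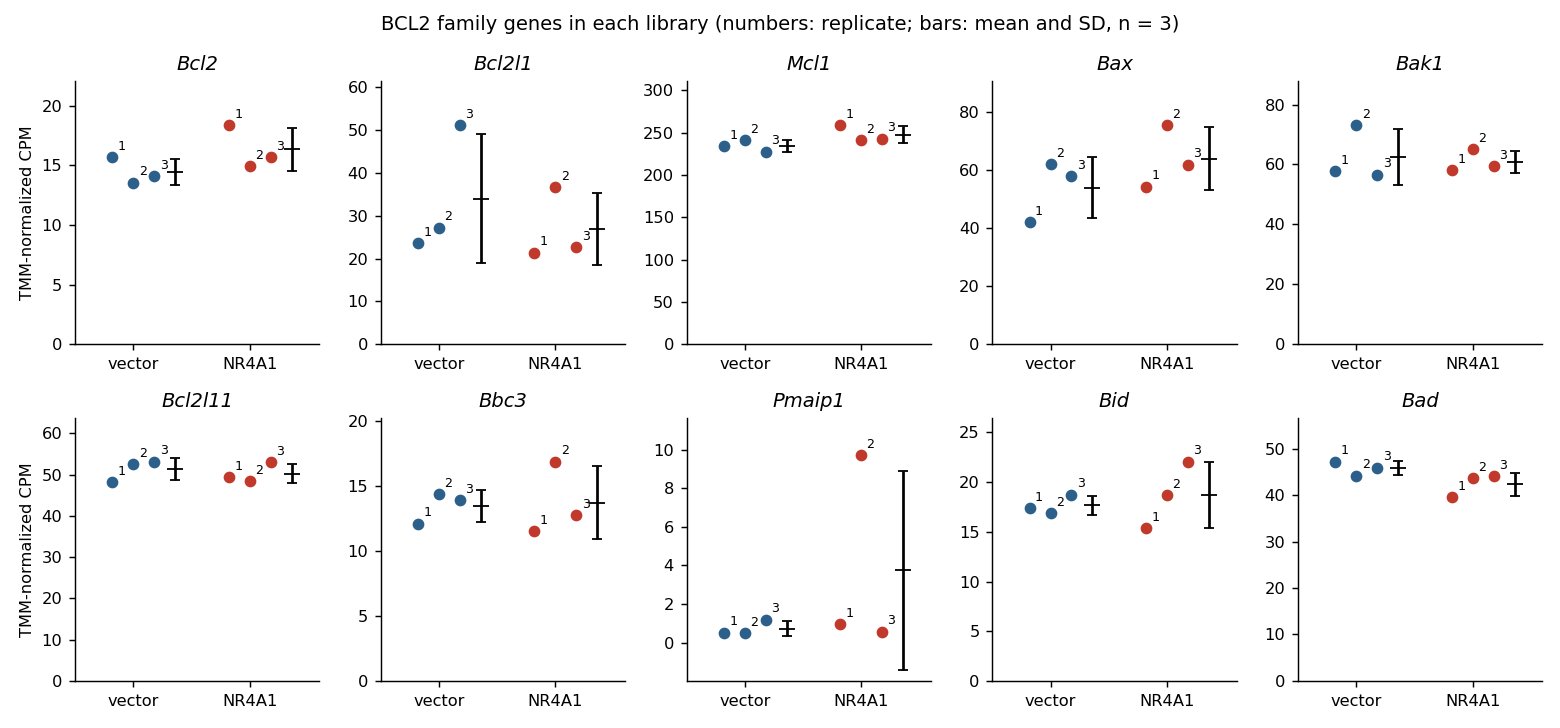
TMM-normalized CPM (y axis, from 0 except where an error bar reaches below) of each of the 10 genes in the 3 vector control libraries and the 3 NR4A1 overexpression libraries, with replicate numbers beside the points and the mean and SD as bars. Mcl1 and Bcl2l11 lie close together in all 6 libraries, while vector replicate 3 stands out in Bcl2l1 and NR4A1 replicate 2 in Pmaip1.

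Of the effectors, Bax was at 54.4, 75.6 and 61.9 CPM in the NR4A1 replicates and at 42.0, 62.1 and 57.8 CPM in the vector controls. Replicate 1 was the lowest library and replicate 2 the highest in each group, and the groups overlapped. The log2 fold change was 0.24 (standard error 0.179, 95% interval -0.18 to 0.67, adjusted p = 0.888) and ran from 0.09 to 0.36 as single libraries were dropped. Bak1, the other effector, which sits in the outer mitochondrial membrane, was at 58.1, 65.1 and 59.4 CPM with NR4A1 and at 57.8, 73.2 and 56.6 CPM with vector, a log2 fold change of -0.04 (standard error 0.122, 95% interval -0.32 to 0.25, adjusted p = 0.976). The vector controls of Bak1 enclosed all 3 NR4A1 libraries.

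The BH3-only genes differed from each other in level and in how far their libraries spread. Bcl2l11, encoding BIM, which can bind every guardian and whose protein is marked for degradation by ERK, was at 49.4, 48.4 and 52.9 CPM with NR4A1 and at 48.2, 52.5 and 53.1 CPM with vector. Its log2 fold change was -0.03 (standard error 0.0848, 95% interval -0.23 to 0.17, adjusted p = 0.974), and all 6 libraries lay within a narrow range. Bad, whose protein is held inactive when AKT phosphorylates it, was at 39.5, 43.6 and 44.0 CPM with NR4A1 and at 47.2, 44.2 and 45.9 CPM with vector. Every NR4A1 library of Bad lay below every vector control, a separation in this direction that 6.22% of tested genes showed. The difference was small, at -0.11 on the log2 scale (standard error 0.0813, 95% interval -0.30 to 0.08, adjusted p = 0.888), and came to -0.064 without NR4A1 overexpression replicate 1.

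Bid, which links death receptors to mitochondria once caspase 8 has cut its protein, was at 15.4, 18.7 and 22.1 CPM with NR4A1 and at 17.4, 16.9 and 18.7 CPM with vector. The NR4A1 libraries included both the lowest and the highest value of Bid, and the log2 fold change was 0.08 (standard error 0.142, 95% interval -0.25 to 0.42, adjusted p = 0.964). Bbc3, encoding PUMA, a p53 target that binds all guardians, was at 11.5, 16.9 and 12.8 CPM with NR4A1 and at 12.1, 14.4 and 13.9 CPM with vector. NR4A1 replicates 1 and 2 were the lowest and highest libraries of Bbc3, and the log2 fold change of 0.03 (standard error 0.167, 95% interval -0.37 to 0.42, adjusted p = 0.987) became -0.15 without NR4A1 overexpression replicate 2.

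Pmaip1 encodes NOXA, a p53 target that binds MCL1, and it lies on chromosome 18 from 66458604 to 66465550. Its counts were 14, 163 and 10 with NR4A1 and 9, 8 and 21 with vector, which is 0.946, 9.71 and 0.578 CPM against 0.521, 0.477 and 1.19 CPM. NR4A1 replicate 2 alone was high, and the other 5 libraries overlapped. The log2 fold change of 2.35 (standard error 1.08, 95% interval -0.19 to 4.89, adjusted p = 0.786) became 0.04 (adjusted p = 0.982) without NR4A1 overexpression replicate 2. With DESeq2 the unadjusted p was 0.00924 and the adjusted p 0.381. In edgeR's fits without NR4A1 overexpression replicate 1 or 3, the unadjusted p was 0.0428 or 0.0235. Over all alternatives the adjusted p lay between 0.381 and 0.996. The spread of Pmaip1 within groups ranked at the percentile of 99.2 among all tested genes. The 3 genes whose log2 CPM over the 6 libraries was most like that of Pmaip1 were Gucy1a2, Dusp1 and Peg13 (Pearson's r 0.995, 0.991 and 0.990, over 6 libraries of which 1 carries most of the pattern). Dusp1, a phosphatase of MAP kinases, had 252, 587 and 257 counts with NR4A1 and 287, 255 and 326 with vector.

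Genes of other cell types were high in the same NR4A1 replicate 2. The summed level of 4 smooth muscle markers (Acta2, Tagln, Myh11, Cnn1) was 316 CPM there and between 0.879 and 2.66 CPM in the other 5 libraries, with all 4 highest in that library. The 6 endothelial markers summed to 99.8 CPM against 6.85 to 7.77 CPM, with 5 of 6 highest there, and Cdh5, Kdr and Tie1 had 0 counts in each of the other 5 libraries. The 7 fibroblast markers summed to 1534 CPM against 918 to 1043 CPM, with 5 of 7 highest there. Without Dcn, which was counted between 14138 and 17269 times in every library, and Lum, a choice made after their values were seen, the sums were 653 CPM against 7.68 to 51.2 CPM, vector control replicate 1 being the highest of the other 5. The 5 immune markers summed to 3.10 CPM there and to between 1.91 and 3.22 CPM elsewhere. The part of other cells in the level of Pmaip1 and Bcl2l1 in NR4A1 replicate 2 was not tested, and in bulk RNA more cells of a type and more RNA per cell cannot be told apart. Vector control replicate 3, the library with the highest Bcl2l1, was not the highest library for any of these sums.

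**Figure D3:**
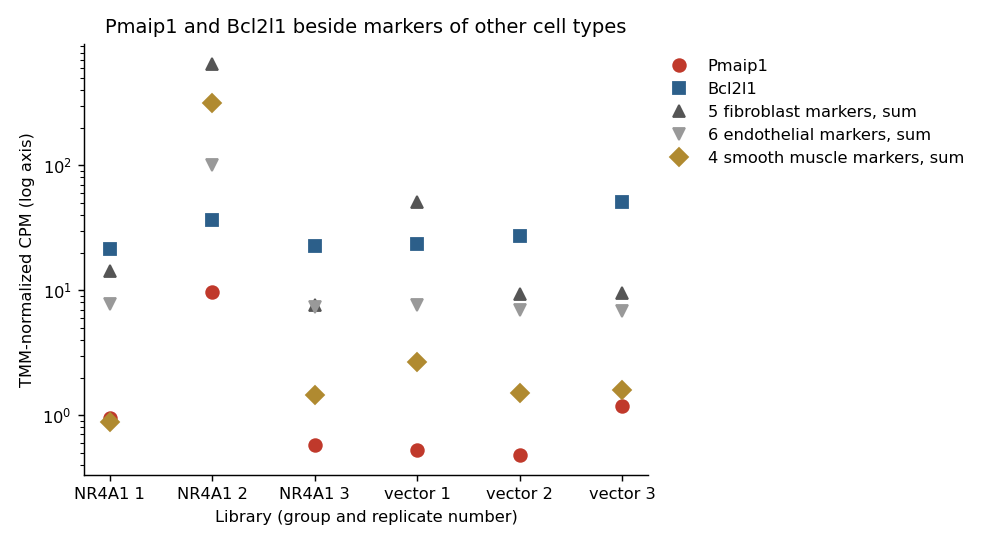
TMM-normalized CPM on a log axis (y axis) of Pmaip1, Bcl2l1 and the summed markers of 3 other cell types (fibroblast sum without Dcn and Lum) in each of the 6 libraries (x axis). Pmaip1 and all 3 marker sums are highest in NR4A1 replicate 2, whereas Bcl2l1 is highest in vector replicate 3.

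Of the 9 lung epithelial markers, Sftpa1 had 0 counts in all 6 libraries and Epcam at most 22, and both were left out by the filter. The summed level of the 9 was 762, 885 and 850 CPM in the NR4A1 replicates and 882, 1015 and 960 CPM in the vector controls. None of the 7 tested markers was called. In 4 of them, Nkx2-1, Cdh1, Sftpb and Krt8, every NR4A1 library lay below every vector control, against 6.22% of all tested genes. Nkx2-1, Cdh1 and Krt19 had an unadjusted p under 0.05 in edgeR's fit, against 6.46% of all tested genes. It was 0.0181 for Cdh1 and 0.0496 for Krt19, at log2 fold changes of -0.27 and -0.25. Nkx2-1, a transcription factor of lung epithelium, had 946, 1003 and 1292 counts with NR4A1 and 1391, 1445 and 1427 with vector (log2 fold change -0.32, unadjusted p = 0.0171 and adjusted p = 0.620). Sftpc, the surfactant gene of alveolar type II cells, had 1013, 1389 and 1247 counts with NR4A1 and 1054, 1321 and 1268 with vector, and the groups overlapped. Krt18 had 164 counts in NR4A1 replicate 2 and 2 to 21 in the other 5 libraries, high in the same library as Pmaip1. The part of these differences in the levels of the BCL2 family genes was not tested.

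Levels per length were compared with the FPKM values (counts scaled to gene length and library size) that the authors deposited. The effector Bax and the guardian Mcl1 had the highest FPKM of the family genes described here. The gene lengths used for the FPKM are not stated here, and the order between genes depends on them. In CPM, without scaling to length, the order was another. The vector controls averaged 234 CPM for Mcl1, 62.5 for Bak1, 54.0 for Bax, 51.3 for Bcl2l11 and 45.8 for Bad. Bcl2l1 averaged 34.0 CPM there, Bid 17.7, Bcl2 14.4, Bbc3 13.5 and Pmaip1 0.729. In the vector controls Bax was at 62.5 ± 12.4 FPKM and Mcl1 at 58.5 ± 1.87 FPKM (SD, n = 3 each), and their ranges overlapped. Bak1 followed at 14.3 ± 2.19 FPKM and Bad at 12.9 ± 0.375 FPKM, again with overlapping ranges and both below every library of Mcl1. Bbc3 was at 4.68 ± 0.433 FPKM, above Bcl2l11 at 3.32 ± 0.181 FPKM, Bid at 3.26 ± 0.169 FPKM and Bcl2l1 at 2.87 ± 1.26 FPKM in each library. The ranges of these last 3 genes overlapped from neighbour to neighbour. Bcl2 was at 1.45 ± 0.106 FPKM and Pmaip1, the lowest, at 0.277 ± 0.151 FPKM.

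In the NR4A1 overexpression group the order was the same except that Bid, at 3.40 ± 0.626 FPKM, and Bcl2l11, at 3.21 ± 0.169 FPKM, changed places within overlapping ranges (SD, n = 3 each). Bax was at 73.0 ± 12.4 FPKM, Mcl1 at 60.9 ± 2.12 FPKM, Bcl2 at 1.61 ± 0.171 FPKM and Pmaip1 at 1.40 ± 1.94 FPKM, an SD above its mean, with replicate 2 at 3.64 FPKM. On this scale Mcl1 overlapped between the groups.

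**Figure D4:**
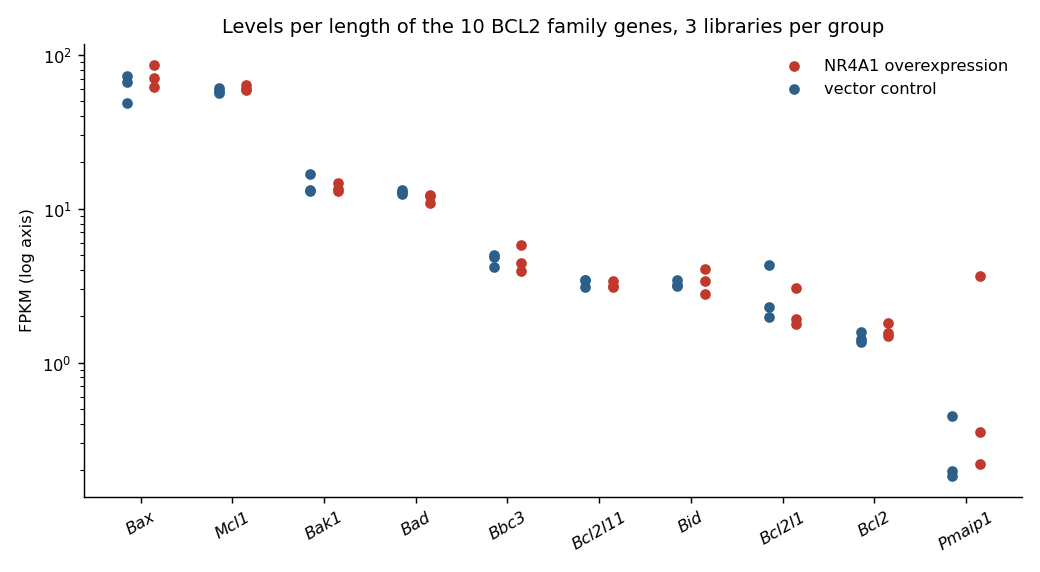
FPKM on a log axis (y axis) of the 10 genes, ordered by their mean in the vector controls (x axis), with 1 point per library, 3 vector controls in blue and 3 NR4A1 overexpression libraries in red. Bax and Mcl1 lie above the other 8 genes in every library, and a single NR4A1 library of Pmaip1 lies above the rest of that gene.

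The balance of the family per length was also within the spread of the libraries. The level of each share and ratio below depends on the gene lengths used for the FPKM. Without scaling to length, the vector controls averaged 54.0 CPM for Bax beside 14.4 for Bcl2, and 234 for Mcl1 beside 34.0 for Bcl2l1. Among the guardians, Mcl1 made up 94.7%, 92.9% and 94.6% of the summed FPKM of Bcl2, Bcl2l1 and Mcl1 in the NR4A1 replicates and 94.2%, 94.3% and 90.8% in the vector controls, with vector replicate 3, the library of high Bcl2l1, the lowest. The ratio of Bax to Bcl2, often used as a gauge of the readiness for apoptosis, was 34.1, 58.4 and 45.6 in the NR4A1 replicates and 30.9, 52.9 and 47.3 in the vector controls. The groups overlapped, and the means of 46.0 ± 12.1 and 43.7 ± 11.4 (SD, n = 3 each) differed by less than the spread within either group. The summed effectors over the summed guardians gave 1.12, 1.58 and 1.33 with NR4A1 and 0.999, 1.39 and 1.28 with vector. The summed BH3-only genes over the summed guardians gave 0.315, 0.438 and 0.382 with NR4A1 and 0.388, 0.378 and 0.401 with vector, the vector controls lying inside the range of the NR4A1 libraries.

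The other genes of the family were described by a list of 16, of which 10 were tested, 0 passed the threshold and 0 had an unadjusted p under 0.05. Their median log2 fold change was -0.07, beside 0.01 over all tested genes, and 8 of the 10 values were below 0. Bmf, encoding a BH3-only protein that can be held on the actin cytoskeleton, had the smallest unadjusted p of them and was at 63.3, 61.8 and 56.6 CPM with NR4A1 and at 65.7, 70.2 and 65.7 CPM with vector. Every NR4A1 library of Bmf lay below every vector control, at a log2 fold change of -0.15 (SE 0.0844, with an adjusted p of 0.834). Bnip3, a hypoxia-induced gene of mitochondrial turnover, had a log2 fold change of -0.12 (adjusted p = 0.910) that came to -0.019 without vector control replicate 2. Bcl2a1a, Bcl2a1b, Bcl2a1d and Bcl2l10, which encode further guardians, had 0 counts in all 6 libraries, which allows up to 3 counts or between 0.170 and 0.203 CPM, counting error only. Bik was counted at most 2 times and Bcl2l14 at most 12 times.

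Downstream of the mitochondrial pore, 17 genes of the apoptosome, the caspases and their inhibitors were all tested, and 0 passed the threshold, 1 having an unadjusted p under 0.05, beside 6.46% of all tested genes. The median log2 fold change was -0.00159. The 1 gene was Apaf1, the scaffold on which cytochrome c activates caspase 9, at 61.7, 44.2 and 53.0 CPM with NR4A1 and at 39.4, 42.5 and 37.0 CPM with vector. Its NR4A1 libraries all lay above those with vector. In log2 terms the difference was 0.42 (SE 0.133, with an adjusted p of 0.603). Birc5, a caspase inhibitor that also serves cell division, was at 195, 195 and 181 CPM with NR4A1 and at 201, 236 and 212 CPM with vector, below the vector controls in every library (log2 fold change -0.19, adjusted p = 0.784). Birc3, an inhibitor induced by NF-kappaB, was counted 6, 62 and 5 times with NR4A1 and 15, 9 and 16 times with vector, high in the same NR4A1 replicate 2 as Pmaip1.

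In the death receptor pathway, which reaches the BCL2 family through Bid, 8 of 11 genes were tested, 0 passed the threshold and 2 had an unadjusted p under 0.05, beside 6.46% of all tested genes. Fas, a death receptor and p53 target, had 233, 345 and 260 counts with NR4A1 and 175, 190 and 178 with vector, and every NR4A1 library was higher. Its log2 fold change was 0.70 (standard error 0.151, 95% interval 0.35 to 1.06, adjusted p = 0.247). With DESeq2 the adjusted p of Fas was 0.0217 at the same fold change, which is under 2-fold, and over all alternatives it lay between 0.0217 and 0.834. Tnfrsf1a, the main TNF receptor, was at 138, 167 and 157 CPM with NR4A1 and at 179, 188 and 174 CPM with vector, lower in every NR4A1 library (log2 fold change -0.23, SE 0.0891, with an adjusted p of 0.731). The median log2 fold change of the 8 genes was 0.01. Fasl and Tnf were counted at most 1 and 2 times in any library, and Tnfsf10 between 2 and 24 times.

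Of 18 genes that act on the members, by transcription, degradation or binding, 17 were tested, 0 passed the threshold and 3 had an unadjusted p under 0.05, beside 6.46% of all tested genes. The median log2 fold change of the 17 was -0.000288. Mdm2, the ubiquitin ligase of p53 and itself a p53 target, was at 67.7, 92.4 and 70.9 CPM with NR4A1 and at 58.3, 59.4 and 58.3 CPM with vector, higher in every NR4A1 library. Its log2 fold change of 0.39 (SE 0.128, with an adjusted p of 0.638) became 0.24 without NR4A1 overexpression replicate 2. Foxo1, a transcription factor that can switch on Bcl2l11, was at 25.5, 24.8 and 25.6 CPM with NR4A1 and at 21.9, 21.8 and 21.8 CPM with vector, a log2 fold change of 0.21 (SE 0.0738, with an adjusted p of 0.665). The third of the 3 genes was Fbxw7, a ligase that marks MCL1 protein for degradation. Only in these 3 genes of the list did every NR4A1 library lie above every vector control, against 6.69% of all tested genes. Trp53 itself had a log2 fold change of -0.05 (adjusted p = 0.973) and Trp73 had 0 counts in all 6 libraries.

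**Figure D5:**
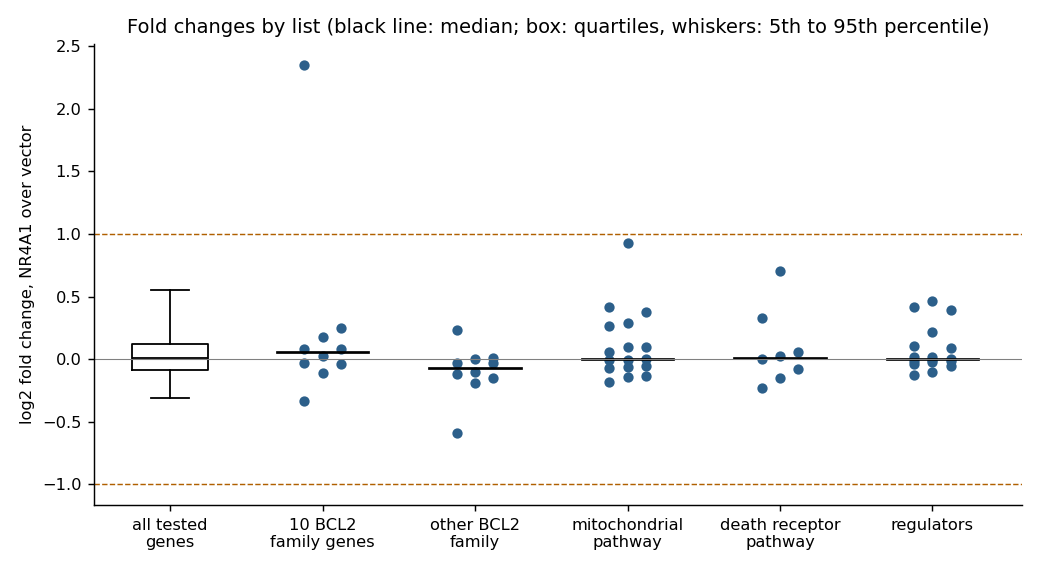
Log2 fold change of NR4A1 overexpression over vector control (y axis) of all tested genes (box with quartiles, whiskers to the 5th and 95th percentile) and of each tested gene of 5 lists (points, with the median as a black line), with dashed lines at a 2-fold change. Pmaip1 is the only point beyond a dashed line, and the medians of the lists lie between -0.07 and 0.05.

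The promoters were searched for an element to which NR4A1 binds as a monomer, the exact letters AAAGGTCA on either strand. In the RefSeq promoters of GRCm38.p6 (250 bases before to 50 after a start), 9 of the 10 genes matched, with 15 promoters, and 0 of them held these letters, against 1.51% of all 32851 promoters of the same length. This says only that the letters are not in these windows. Sites with other letters, such as the one with reporter activity in the paper's Ereg promoter, were not sought.

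Several of the genes overlap another gene in GENCODE M21. On the same strand, Bax shares 915 bases with the protein-coding Gm45808, which is not among the genes counted. Bid shares 2094 bases with Gm44260, counted between 1 and 19 times, on the same strand. Bcl2 shares 2087 bases of its strand with Gm37053, counted at most 2 times. On the opposite strand, 3 overlapping genes had counts. Bak1 lies on chromosome 17 from 27019810 to 27029009, inside Ggnbp1, which was counted between 50 and 440 times. Bid lies on chromosome 6 from 120891930 to 120916853 and shares 913 bases with Bcl2l13, counted between 3902 and 4817 times, and Bad on chromosome 19 from 6941861 to 6951898 shares 620 bases with Gpr137, counted between 191 and 310 times. The libraries were strand-specific, but whether the counting used the strand is not given in the sources used here. The levels of Bak1, Bid and Bad are uncertain to that extent. How reads in the same-strand overlaps of Bid and Bcl2 with counted genes were assigned is not given either.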

How the data were processed

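Total RNA of MLE-12 cells was sequenced as 6 strand-specific libraries, grouped by the treatment in the labels. The authors deposited raw read counts per gene and library and FPKM values computed from them. HISAT2 2.0.4 and GRCm38.p4 are named in the submitters' processing notes, and the counting program and annotation are not given in the sources used here. Over 10738 genes, the deposited FPKM followed the counts and the library totals, the median over genes departing from this by at most 2.76e-06% in any library.

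The counts were filtered with filterByExpr, scaled with TMM and compared with the quasi-likelihood test of edgeR 4.0.16 in R 4.3.3, on the whole table, with adjustment over 12941 genes. Calls needed an adjusted p below 0.05 together with a fold change of 2 or more. Standard errors were the log2 fold change divided by the root of F, and intervals used the t distribution with 7.16 degrees of freedom. FPKM served to compare levels between genes.

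Libraries of the same group differed by more than counting error, with a chi-square per degree of freedom between 9.73 and 42.7, and all were kept. The alternatives were DESeq2 1.42.0, limma 3.58.1 on log2(FPKM + 1) with genes averaging 1 FPKM or more in either group, other scalings, filters and thresholds, omission of each library or of Nr4a1, and a block for the replicate number. The scripts were tested on simulated counts. The members and gene lists were chosen with earlier results of these data known. All 10 members are named, as are, of each other list, the 2 tested genes with the smallest unadjusted p. Genes past these, such as Birc3, Fbxw7 and Trp53, were named after their values were seen.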

Additional observations from a re-analysis of the deposited data

How the results depend on the processing

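Of the 10 genes, 0 were called in either direction under each of the 16 alternatives, and 0 genes of the other 4 lists were called under them. Signs changed for 4 of the 10 genes, each with a 95% interval across 0 in the reported fit. The log2 fold change of Bbc3 was -0.0057 with limma on FPKM, -0.15 without NR4A1 overexpression replicate 2 and -0.04 without vector control replicate 1, and that of Bid was -0.060 without NR4A1 overexpression replicate 3. Bak1 came to 0.090 without vector control replicate 2 and Bcl2l1 to 0.082 without vector control replicate 3. With each library left out in turn, the log2 fold change of Pmaip1 ran from 0.04 to 2.89, that of Bcl2l1 from -0.63 to 0.082, that of Bbc3 from -0.15 to 0.14, that of Bid from -0.060 to 0.20, that of Bak1 from -0.11 to 0.090, that of Bcl2 from 0.083 to 0.24, that of Mcl1 from 0.048 to 0.10, that of Bax from 0.093 to 0.36, that of Bcl2l11 from -0.077 to -0.0043 and that of Bad from -0.15 to -0.064.

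Over all genes, the 22 higher and 0 lower calls became 71 and 2 with DESeq2, 144 and 17 with an unadjusted p, 30 and 1 without the fold threshold, 8 higher with a mean of at least 10 counts and 7 higher with limma on FPKM. Leaving out each library in turn gave 3 to 25 higher and 0 to 3 lower calls, with 25 higher only without NR4A1 overexpression replicate 2 and at most 6 without any other library. The cause was not tested. The replicate numbers are shared between the groups. Over all tested genes, libraries with the same number departed from their group means with correlations of -0.00574, 0.00793 and 0.204. The numbers were therefore not taken as pairs, which does not exclude pairing in single genes. With the replicate block 5 genes were called higher and 0 lower, none of them among the 10, and Bax had a log2 fold change of 0.25 (edgeR, unadjusted p = 0.0273, adjusted p = 0.491). Pmaip1 had 1.47 in that fit. The standard error with the block was 0.0827 for Bax, 0.0790 for Bak1 and 1.09 for Pmaip1, beside 0.179, 0.122 and 1.08 without it. Pmaip1 had 8 to 21 counts in 5 of the 6 libraries and 163 in NR4A1 replicate 2. Few counts and the spread between libraries both limit what Pmaip1 can show. Its standard error was 0.543 without NR4A1 overexpression replicate 2.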
